A study of Mus musculus with 9 samples.

Results

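The 10 genes described here encode the ligands, receptors and natural inhibitors of activin and myostatin signalling: the type II receptors Acvr2a and Acvr2b, the type I receptors Acvr1 and Acvr1b, the ligand genes Mstn, Gdf11, Inhba and Inhbb, and the inhibitors Fst and Fstl3. They were taken by symbol from the 13890 genes of the heart count table, and all 10 were present. The filter on low counts removed 526 genes and kept 13364, and all 10 members were among those kept.

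RNA was sequenced from the hearts of 9 male NSG mice, which were 8 weeks old when the experiment began and were studied about 3 weeks later. NSG mice carry the NOD background, the scid mutation and a null Il2rg allele and have no mature T, B or NK cells. Sham-operated mice (S, animals 2, 3 and 5) had a splenic injection without cells. A second group (T, animals 11, 12 and 15) was labelled as hosts of HCT116, a single human colorectal cancer line injected into the spleen to seed liver metastases. The third (A + T, animals 20, 21 and 22) was labelled as the same tumour hosts given weekly ACVR2B/Fc, a soluble fusion of the ACVR2B ligand-binding domain with an antibody Fc part, which traps activins, myostatin and other ligands outside the cell. Each group had 3 animals with 1 library each. The question is whether the heart's own transcripts for this pathway differ between these groups.

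The identity of the libraries labelled T may be in doubt, and no value of the count table settles it. Set against the study's list of changed heart genes, the differences of these libraries from S ran along the column for ACVR2B/Fc against sham and not along the column for tumour hosts against sham. That comparison was made outside the analyses reported here, and no measure of its strength is given. These libraries are therefore called the libraries labelled T, and no direction below is read as that of a tumour host. Sham mice treated with ACVR2B/Fc were part of the study and were not analysed here as a group of their own.

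Activins, myostatin and GDF11 are dimeric growth factors of the TGF-β superfamily. They bind a type II receptor kinase, which recruits and phosphorylates a type I receptor, which in turn phosphorylates Smad2 and Smad3. Follistatin and follistatin-like 3 wrap around the ligands and keep them from the receptors. In skeletal muscle the pathway limits muscle mass, and in the heart myostatin is made at a low level and activin signalling is linked to ageing and heart failure.

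Totals ranged from 12392222 to 19732471 counts, so that 3 counts in a library stand for 0.152 to 0.281 counts-per-million (CPM), and the ribosomal transcript Rn45s took 4.57% to 19.6% of them. All 5 ventricular cardiomyocyte markers were abundant in every library, with a summed level of 38300 to 58900 CPM, and the 2 of 6 skeletal muscle markers present in the table summed to 0.594 to 2.59 CPM. The library of animal 12 labelled T and that of animal 22 of A + T carried airway genes, at 80.5 and 1280 CPM against at most 1.67 CPM in the other 7. This sum rests on the 2 of 5 airway markers in the table, none of which passed the filter. Mesothelium markers were also highest in these libraries, at 96.7 and 152 CPM against at most 80.2 CPM. Adipocyte markers were highest in animal 12, at 68.2 CPM against at most 15.8 CPM. The calls of members and pathway genes that changed without both libraries are named with the genes concerned.

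The members lie on 6 chromosomes of the mouse build GRCm38 (mm10). Acvr2a is at chr2:48814109-48903269 on the plus strand and Acvr1 at chr2:58388644-58567157 on the minus strand. Acvr2b is at chr9:119402118-119434995 and Acvr1b at chr15:101174067-101213684, both on the plus strand. Of the ligand genes, Mstn is at chr1:53061640-53068079 (plus), Inhbb at chr1:119415465-119422248 (minus), Gdf11 at chr10:128882295-128891718 (minus) and Inhba at chr13:16011851-16031621 (plus). Fst is at chr13:114452290-114458951 (minus) and Fstl3 at chr10:79777272-79782630 (plus). Counts were summed over the exons of each gene. No stretch of 75 bases, the read length, in the annotated transcripts of any member occurred in a transcript of another gene, so that Mstn and Gdf11, whose proteins are close relatives, were counted apart.

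RefSeq promoter windows (GRCm38.p6) matched 9 of the 10 members, all but Fst. The 250 bases upstream of the RefSeq start differed widely in composition. GC content was 85.6% for Acvr1, 82.0% for Acvr2a, 81.2% for Gdf11, 78.8% for Acvr1b and 72.8% for Acvr2b. It was 43.2% for Inhba and 38.4% for Mstn, with a median of 52.4% over all 32851 windows. Every base of the Acvr1 window falls in an annotated exon, within the span of the gene given above. By that annotation it is not upstream sequence. The Smad-binding core CAGAC or its reverse complement GTCTG, searched on both strands, was present in 4 of the 9 members (Acvr2a, Acvr2b, Mstn and Fstl3) and in 42.2% of all windows. A match is a description of the letters only. The windows of 4 members are printed 5′ to 3′ on the gene's strand, with the motif in capitals and without bases that fall in an annotated exon. Acvr2b is shown as the receptor whose domain the treatment carries, Acvr1b as the type I receptor set against Acvr1 below, Fstl3 as the inhibitor with the lowest P-value, and Mstn as the member with the lowest GC content. Acvr2b is read from chr9:119401928-119402117, Acvr1b from chr15:101173822-101174066, Fstl3 from chr10:79777024-79777271 and Mstn from chr1:53061390-53061639.
Acvr2b: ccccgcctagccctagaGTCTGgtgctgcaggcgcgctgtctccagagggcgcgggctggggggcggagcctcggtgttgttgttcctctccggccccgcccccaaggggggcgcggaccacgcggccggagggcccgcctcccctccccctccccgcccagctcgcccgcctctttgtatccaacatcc
Acvr1b: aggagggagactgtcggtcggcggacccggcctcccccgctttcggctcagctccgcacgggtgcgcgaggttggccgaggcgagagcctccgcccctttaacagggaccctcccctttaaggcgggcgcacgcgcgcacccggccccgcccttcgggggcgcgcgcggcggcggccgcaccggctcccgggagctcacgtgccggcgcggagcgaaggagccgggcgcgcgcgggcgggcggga
Fstl3: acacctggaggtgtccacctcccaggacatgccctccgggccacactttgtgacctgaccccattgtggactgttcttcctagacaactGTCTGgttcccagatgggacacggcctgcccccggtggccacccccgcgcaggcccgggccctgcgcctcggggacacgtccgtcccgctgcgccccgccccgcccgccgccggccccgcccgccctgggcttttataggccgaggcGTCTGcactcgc
Mstn: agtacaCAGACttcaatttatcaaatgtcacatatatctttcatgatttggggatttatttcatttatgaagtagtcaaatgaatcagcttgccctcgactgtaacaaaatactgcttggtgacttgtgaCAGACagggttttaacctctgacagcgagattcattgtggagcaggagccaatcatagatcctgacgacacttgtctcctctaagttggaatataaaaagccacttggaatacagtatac
The 250-base window of Acvr2b held 1 match, that of Fstl3 2, that of Mstn 2 and that of Acvr1b 0. The windows of Acvr1b and Acvr2b held 42 and 24 CpG dinucleotides, against 3 in Mstn.

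The receptors, other than Acvr2b, were the most abundant members. Levels between genes were compared on the deposited log2 scale, which is scaled by library size and gene length, over all 9 libraries. Mean levels were 2.602 for Acvr1b (range 2.26 to 2.89), 2.598 for Acvr2a (2.12 to 2.85) and 2.35 for Acvr1 (1.84 to 2.82). Fstl3 followed at 1.54 (0.77 to 2.05), then Inhbb at 0.74 (−0.08 to 1.24), Acvr2b at 0.35 (−0.12 to 1.003) and Inhba at 0.20 (−0.54 to 0.79). The least abundant were Fst at −1.04 (−1.94 to −0.22), Mstn at −1.13 (−1.87 to −0.10) and Gdf11 at −1.74 (−3.26 to −0.17). Each gene's range overlapped that of the next in this order, so no neighbouring pair was separated by its spread. Acvr1b and Acvr2a lay above Fstl3 in every library, and Acvr1, Acvr1b and Acvr2a lay above Inhbb in every library. The order depends on the lengths behind the deposited values, and these were at times far below the exon lengths of the GENCODE annotation: 1536 against 6390 bases for Inhba, 1710 against 3928 for Acvr2b, 1816 against 4062 for Gdf11 and 2874 against 4589 for Fst. With the annotated lengths the first 5 were the same genes, with Acvr2a ahead of Acvr1b (2.17), and then came Acvr2b (−0.94), Mstn (−1.30), Fst (−1.86), Inhba (−1.97) and Gdf11 (−3.49). Inhba was thus above Mstn and Fst by one set of lengths and below both by the other.

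**Figure D1:**
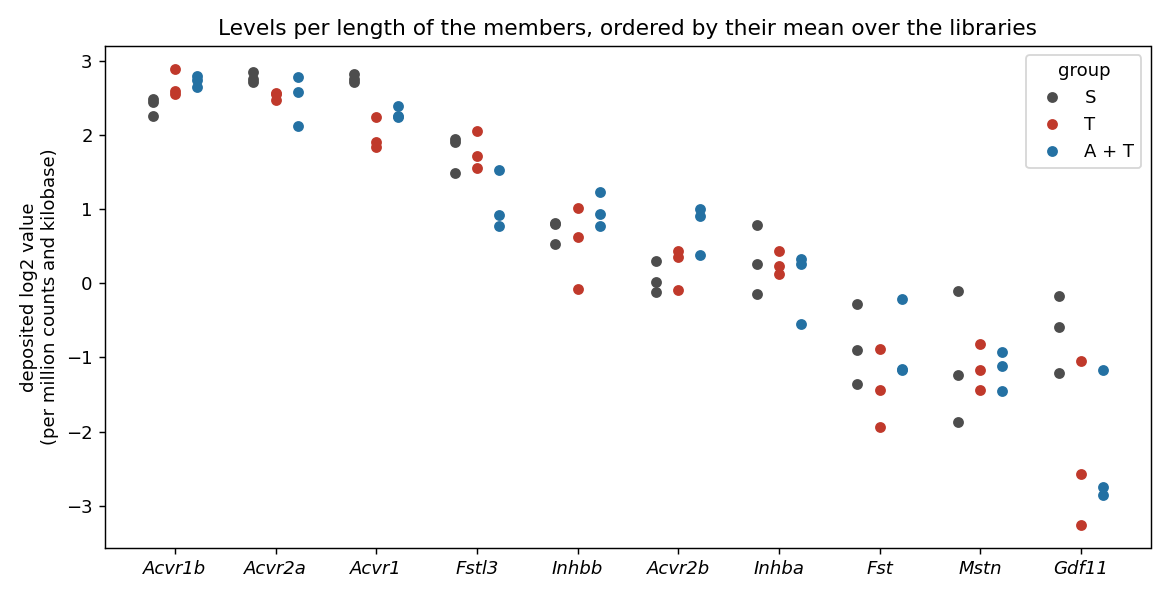
Deposited log2 value, scaled by library size and gene length (y axis), of the 10 members, ordered by their mean over the 9 libraries (x axis); each point is 1 library, coloured by group. Acvr1b, Acvr2a and Acvr1 sit between 1.84 and 2.89, and Gdf11 spreads from −3.26 to −0.17.

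Of the 10 members, 1 differed between the libraries labelled T and S at an adjusted P-value under 0.05, which was Acvr1 and was lower. Of all genes tested, 21.2% passed in this comparison, 10.3% higher and 11% lower, so the members' count of 1 in 10 was not above the background. No member passed in A + T vs. T, against 5.88% of all genes (3.09% higher, 2.79% lower). At an unadjusted P-value under 0.05, edgeR gave 2 members there (Acvr1 and Fstl3, background 22.4%), and DESeq2, limma-voom and edgeR's likelihood ratio test each called 0 after adjustment. In A + T vs. S, 1 member passed, again Acvr1 and again lower, against 8.31% of all genes (4.67% higher, 3.64% lower). The median log2 fold change of the members was −0.20 for T vs. S, 0.10 between A + T and T, and −0.26 between A + T and S, beside −0.004, 0.01 and 0.003 over all genes. The 3 comparisons share libraries in pairs and are not independent of each other.

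The study's own thresholds, an unadjusted P-value under 0.05 with a change of at least 1.5-fold, picked in part other members when applied to the fit used here. These are not the study's calls: 1899 genes passed in T vs. S, more than the paper reports for tumour hosts against sham. The thresholds gave Acvr1 and Gdf11 in T vs. S (background 14.2%), Fstl3 in A + T vs. T (8.10%), and Acvr2b, Gdf11 and Fstl3 in A + T vs. S (8.91%). On the unadjusted P-value alone, 3 members were under 0.05 in T vs. S (Acvr1, Acvr1b and Gdf11, background 35.4%) and 5 in A + T vs. S (the same 3 with Acvr2b and Fstl3, background 26.1%). Groups did not overlap for 3 members in T vs. S (Acvr1, Acvr1b and Acvr2a, against 42.6% of all genes), for 2 in A + T vs. T (Acvr1 and Fstl3, 25.4%) and for 3 in A + T vs. S (Acvr1, Acvr1b and Acvr2b, 32.4%).

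**Figure D2:**
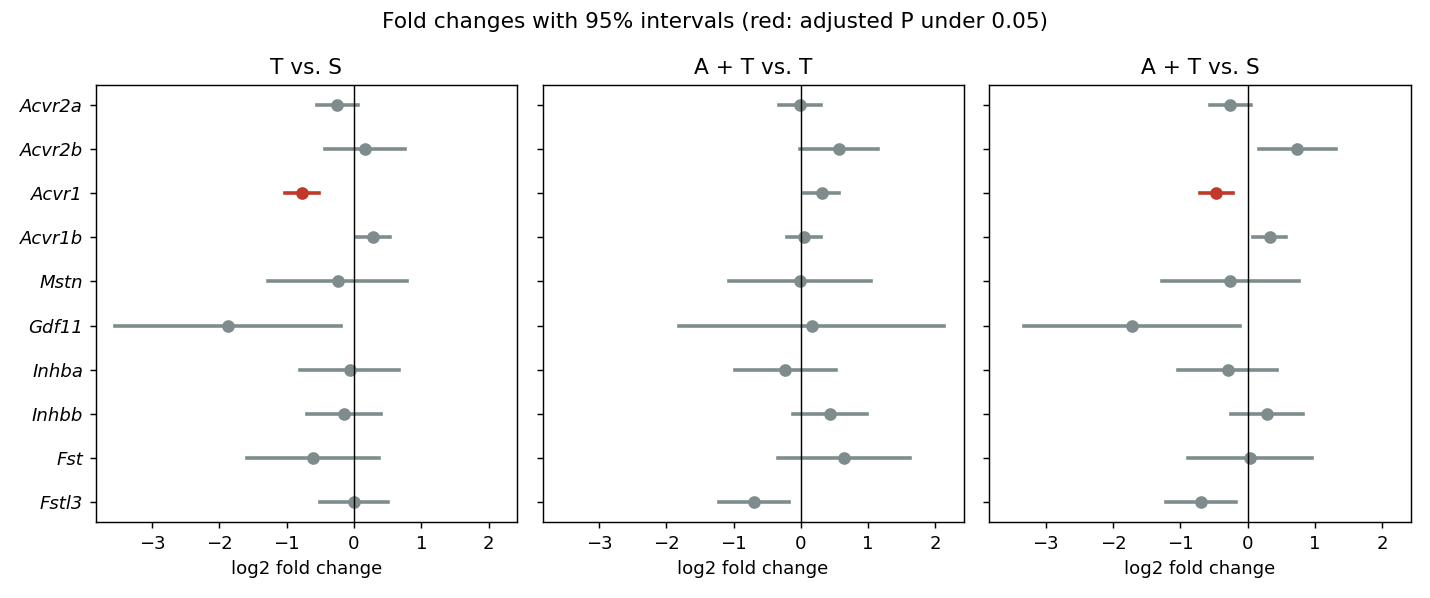
Log2 fold change (x axis) of each member (y axis) for each pair of groups, with 95% intervals as lines; red marks an adjusted P-value under 0.05. Only Acvr1 is red, at −0.77 in T vs. S and at −0.47 in A + T vs. S, and the intervals of Gdf11 are the widest of the 10.

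Acvr1 encodes ALK2, a type I receptor best known for BMP signalling that activin A can also engage. In S its level was 22.3, 23.3 and 21.6 CPM (animals 2, 3 and 5). In the libraries labelled T it was 11.7, 12.3 and 15.5 CPM (animals 11, 12 and 15), and in A + T it was 15.6, 15.7 and 17.4 CPM (animals 20, 21 and 22). The 3 groups did not overlap: every library labelled T lay below every A + T library, the highest of the former only just, and both lay below every S library. The underlying counts were 299 to 459 in S, 166 to 207 in T and 219 to 282 in A + T. Means were 22.4 ± 0.840, 13.2 ± 2.06 and 16.2 ± 0.996 CPM (SD, n = 3 each).

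By the fold that edgeR fitted, as for every fold given here, Acvr1 was 1.71-fold lower in the libraries labelled T than in S, a log2 fold change of −0.77 (standard error 0.11, 95% interval −1.03 to −0.52, adjusted P = 0.001426, quasi-likelihood test of edgeR), with 3 of 3 libraries below S. The call held in all 20 alternative analyses, with log2 fold changes of −0.891 to −0.696. In A + T it was 1.38-fold lower than in S (log2 fold change −0.47, standard error 0.11, 95% interval −0.71 to −0.22, adjusted P = 0.03236). This second call was close to the threshold: it was kept in 14 of 20 alternatives and lost when any S animal, animal 20 or animal 21 was left out, with log2 fold changes of −0.49 to −0.435 and adjusted P-values of 0.0705 to 0.113, and when libraries were scaled by size alone (−0.48, adjusted P = 0.0742). Between A + T and the libraries labelled T the log2 fold change was 0.31 (95% interval 0.05 to 0.57, unadjusted P = 0.02293, adjusted P = 0.1478), and no alternative called it.

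Markers of several cell types differed between the groups. Ventricular cardiomyocyte sums were 53300 to 58900 CPM in S, 40600 to 50400 in the libraries labelled T and 38300 to 52900 in A + T. In T vs. S, 1 of the 5 ventricular markers was higher and 1 lower (background 10.3% and 11%). The 5 of 5 atrial cardiomyocyte markers summed to 3000 to 3080, 861 to 4550 and 793 to 2050 CPM, and 1 of them was lower in T vs. S. The 5 of 5 fibroblast markers summed to 1250 to 1430 CPM in S, 768 to 899 CPM in the libraries labelled T and 957 to 1380 CPM in A + T. All 5 were lower in T vs. S (background 11%) and 3 were higher in A + T vs. T (background 3.09%) at an adjusted P-value under 0.05. The 4 of 4 endothelial markers summed to 676 to 794, 384 to 488 and 512 to 608 CPM, and 3 of them were lower in T vs. S. The 3 of 3 smooth muscle markers summed to 138 to 163, 63.0 to 113 and 88.9 to 91.7 CPM, and 2 of them were lower in T vs. S. Fibroblast and endothelial sums, like Acvr1, had their lowest range in the libraries labelled T. In A + T vs. T, 1 endothelial marker was higher, and neither a smooth muscle marker nor Acvr1 passed. In A + T vs. S, where Acvr1 was lower, 2 smooth muscle, 1 endothelial and 0 fibroblast markers were lower (background 3.64%). The 4 of 4 macrophage markers summed to 108 to 122, 110 to 126 and 164 to 220 CPM. All 4 were higher in A + T vs. T (background 3.09%) and in A + T vs. S (background 4.67%). The part of these cell types in the level of Acvr1 was not tested, and in whole hearts fewer cells of a type and less RNA per cell cannot be told apart.

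The 3 genes whose log2 CPM ran closest to Acvr1 across the 9 libraries, among 13363 others, were Vasp, an actin regulator (Pearson r = 0.985, Spearman rho = 0.950), Nes, the intermediate filament gene nestin (r = 0.982, rho = 0.933), and Slc22a23, a predicted solute carrier (r = 0.980, rho = 0.917). Nes was at 42.1 ± 0.982 CPM in S, 14.3 ± 6.08 in the libraries labelled T and 21.5 ± 0.942 in A + T. Vasp was at 28.9 ± 1.47, 18.5 ± 2.67 and 22.4 ± 2.57 CPM, and Slc22a23 at 25.6 ± 0.0559, 14.1 ± 2.92 and 16.7 ± 2.45 CPM (SD, n = 3 each). These correlations are descriptions over libraries that share their groups and their scaling.

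Acvr1b encodes ALK4, the classical type I receptor for activins, which myostatin and GDF11 also use. Its level was 18.4, 15.7 and 17.9 CPM in S, 19.1, 19.8 and 24.3 CPM in those labelled T and 22.7, 20.5 and 21.9 CPM in A + T. All 6 libraries of the latter groups were above all 3 S libraries, while the latter groups overlapped each other. The log2 fold change was 0.28 in T vs. S (95% interval 0.03 to 0.53, adjusted P = 0.1013), 0.05 in A + T vs. T (−0.20 to 0.29, adjusted P = 0.8451) and 0.33 in A + T vs. S (0.08 to 0.58, adjusted P = 0.09583). None of these passed, in the main test or in any of 20 alternatives.

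The levels of Acvr1 and Acvr1b can also be given as a ratio within each library, which restates the levels above and is not separate evidence. Per length, the log2 ratio of Acvr1 to Acvr1b was 0.26, 0.56 and 0.26 in S, so that Acvr1 was the higher of the pair in every sham heart. The libraries labelled T had −0.71, −0.69 and −0.65, those of A + T −0.55, −0.39 and −0.34, and Acvr1b was thus the higher in all 6. No 2 groups overlapped. With the exon lengths of the reference annotation in place of the deposited ones, every library kept its sign (0.147 to 0.443 in S, −0.838 to −0.776 in T and −0.675 to −0.465 in A + T). Mean ratios were 0.36 ± 0.17, −0.69 ± 0.03 and −0.43 ± 0.11 (SD, n = 3 each). The differences were −1.05 in T vs. S, 0.26 in A + T vs. T and −0.79 in A + T vs. S, each with P = 0.1 in a two-sided exact permutation test, the smallest value that 3 libraries against 3 allow, so this design could not reach 0.05.

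**Figure D3:**
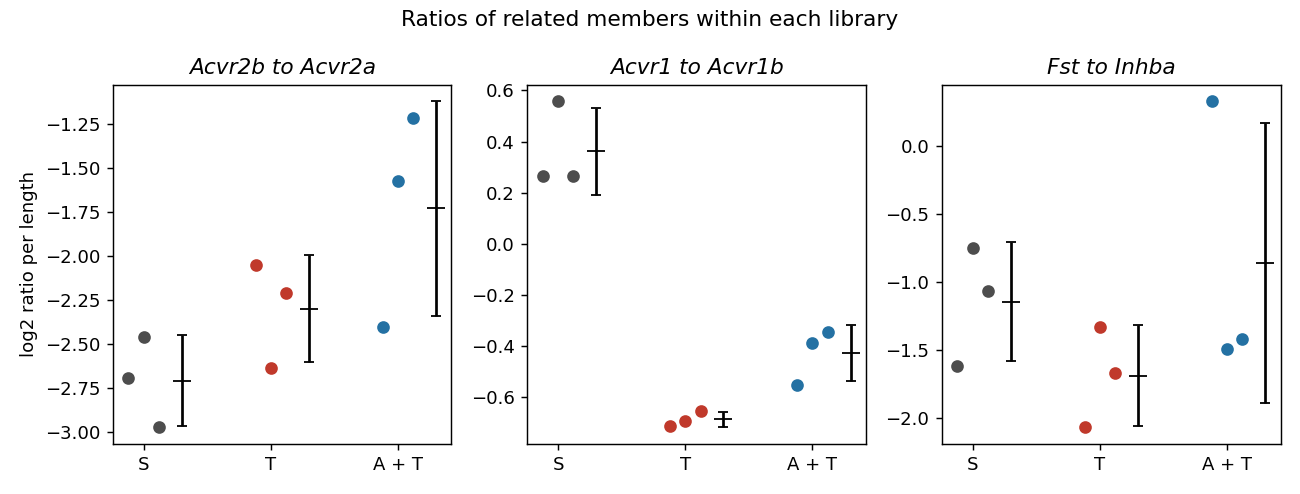
Log2 ratio per length (y axis) of Acvr2b to Acvr2a, Acvr1 to Acvr1b and Fst to Inhba in each library (points), with the group mean and SD beside them; each panel has its own scale. The Acvr1 to Acvr1b ratio is above 0 in the 3 S libraries and between −0.71 and −0.34 in the other 6.

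The type II receptors are where activins, myostatin and GDF11 dock first. Acvr2a, the more abundant, was at 37.3, 38.5 and 41.1 CPM in S, 31.6, 33.4 and 33.7 CPM in those labelled T and 39.2, 33.9 and 24.7 CPM in A + T. All libraries labelled T lay below all S libraries, whereas A + T ran from below T to within S. The log2 fold change was −0.24 in T vs. S (95% interval −0.55 to 0.06, adjusted P = 0.2364), −0.01 in A + T vs. T (−0.32 to 0.30) and −0.26 in A + T vs. S (−0.56 to 0.05, adjusted P = 0.2679). The spread in A + T rested on animal 22. When that library was left out, Acvr2a passed in T vs. S (log2 fold change −0.237, adjusted P = 0.0481), and it passed as well when only the 6 libraries compared were fitted (−0.237, adjusted P = 0.0463). It passed in only these 2 of 20 alternatives, with adjusted P-values of up to 0.433 in the rest. Without animals 12 and 22 together the adjusted P-value was 0.0784.

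Acvr2b, the receptor whose ligand-binding domain ACVR2B/Fc carries, was read from 20 to 50 counts a library. It was at 1.60, 1.98 and 1.45 CPM in S, 2.17, 1.49 and 2.06 CPM in those labelled T and 2.10, 3.30 and 3.08 CPM in A + T. Animals 21 and 22 stood above all other libraries, and animal 20 lay above S and within T. The A + T mean was 2.83 ± 0.638 CPM and the S mean 1.68 ± 0.274 CPM (SD, n = 3 each), a fitted difference of 1.67-fold. Its log2 fold change of 0.74 (95% interval 0.16 to 1.31, unadjusted P = 0.01655) missed the threshold after adjustment (adjusted P = 0.1048), and no alternative called it (0.626 to 0.915). Against T, the A + T value was 0.57 on the log2 scale (−0.01 to 1.15, adjusted P = 0.2285), and T vs. S gave 0.17 (−0.43 to 0.76, adjusted P = 0.697). Within libraries, the log2 ratio of Acvr2b to Acvr2a per length was −2.71 ± 0.26 in S, −2.30 ± 0.30 in the libraries labelled T and −1.73 ± 0.61 in A + T (SD, n = 3 each). The difference of 0.98 between A + T and S had P = 0.1 in a two-sided exact permutation test, the smallest possible, and that of 0.41 between T and S and of 0.57 between A + T and T had P = 0.2 and P = 0.3 in the same exact test.

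**Figure D4:**
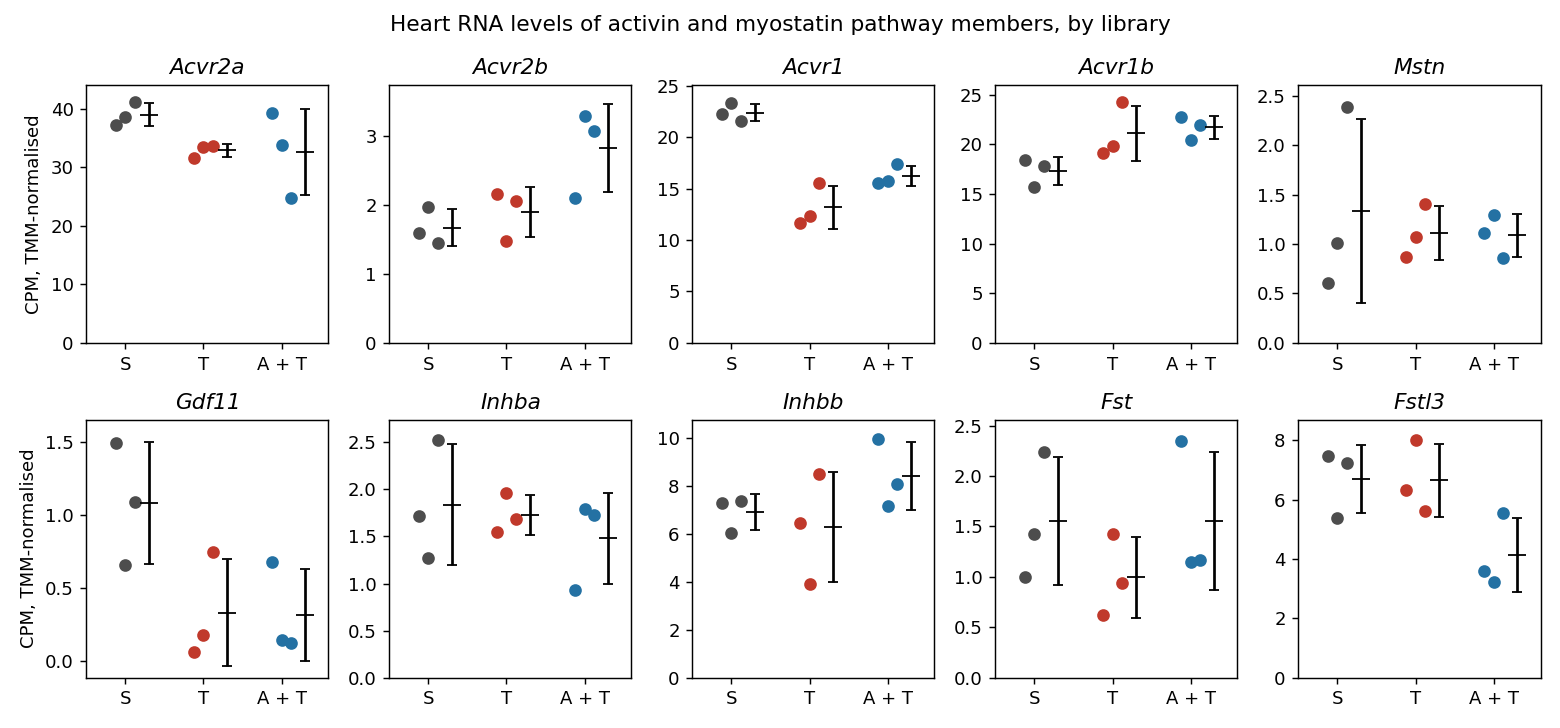
CPM scaled by TMM (y axis) of each member in each library (points; S, T and A + T on the x axis), with the group mean and SD as a bar beside them. The 3 groups of Acvr1 do not overlap, Acvr2b is highest in animals 21 and 22 of A + T, and the level of Fstl3 is lowest in animals 20 and 21 of A + T.

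The ligand genes were expressed at low levels and none was called in any comparison. Mstn, which encodes myostatin, had 11 to 33 counts in S and 14 to 18 in each of the other groups, with means of 1.34 ± 0.932 CPM in S, 1.11 ± 0.271 in the libraries labelled T and 1.09 ± 0.216 in A + T (SD, n = 3 each). Its S libraries, at 0.608, 1.01 and 2.39 CPM, spanned all values of the other groups. The 95% intervals of its log2 fold change, −1.27 to 0.78 in T vs. S, −1.07 to 1.04 in A + T vs. T and −1.27 to 0.76 in A + T vs. S, were all wide and included 0.

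Gdf11, the close relative of Mstn, was the scarcest member. The S libraries held 27, 13 and 15 counts of it, those labelled T 1, 3 and 8, and A + T 11, 2 and 2. Of the 6 libraries outside S, 4 were at or under 3 counts. In CPM, animals 15 and 20 (0.748 and 0.680) were within the range of S (0.659 to 1.49), though their counts were below it. Means were 1.08 ± 0.416, 0.329 ± 0.367 and 0.316 ± 0.316 CPM (SD, n = 3 each). The log2 fold change was −1.88 in T vs. S (95% interval −3.55 to −0.20, unadjusted P = 0.03169, adjusted P = 0.1045) and −1.72 in A + T vs. S (−3.32 to −0.11, unadjusted P = 0.03841, adjusted P = 0.165). Without animal 15 the T vs. S value was −3.06 with an adjusted P-value of 0.0345, but the libraries labelled T that remained held only 1 and 3 counts. This was the case in 1 of 19 alternatives, and Gdf11 was not called with all libraries. Without animal 20 the A + T vs. S value was −2.94 (adjusted P = 0.0704), and without animal 22 it was −1.31. Between A + T and T the log2 fold change was 0.16 (−1.81 to 2.13).

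Inhba and Inhbb encode the βA and βB chains of activins and inhibins. Inhba was read from 15 to 35 counts a library, with means of 1.84 ± 0.640 CPM in S, 1.73 ± 0.210 in the libraries labelled T and 1.48 ± 0.482 in A + T. Inhbb, the most abundant of the 4 ligand genes per length, was at 6.90 ± 0.751, 6.29 ± 2.30 and 8.40 ± 1.42 CPM (SD, n = 3 each). Groups overlapped in every comparison of both genes. The largest log2 fold change was that of Inhbb in A + T vs. T, 0.44 (95% interval −0.11 to 0.99, adjusted P = 0.3247), where the libraries labelled T were themselves spread over 6.44, 3.92 and 8.51 CPM. For Inhba it was −0.06 in T vs. S, −0.23 in A + T vs. T and −0.29 in A + T vs. S, with intervals that all span 0.

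Of the inhibitors, Fstl3 had the lowest P-values. Fstl3 encodes a secreted glycoprotein that binds activins and myostatin, and it is itself a gene that activin and TGF-β can induce. It was at 7.46, 5.38 and 7.23 CPM in S, 6.32, 8.02 and 5.61 CPM in those labelled T and 3.59, 3.23 and 5.54 CPM in A + T. Every A + T library lay below every library labelled T, with animal 22 only just below the lowest of them, and animal 22 overlapped S. The log2 fold change was −0.69 in A + T vs. T (95% interval −1.22 to −0.17, unadjusted P = 0.01436, adjusted P = 0.1147) and −0.69 in A + T vs. S (−1.21 to −0.17, unadjusted P = 0.01411, adjusted P = 0.09599), whereas it was 0.00 in T vs. S (−0.50 to 0.51, adjusted P = 0.9953). Neither was called with all libraries. Animal 22 was the A + T library nearest to the other groups and the one with the most airway RNA. Without it the A + T vs. T value was −0.974 (adjusted P = 0.0275) and the A + T vs. S value −0.958 (adjusted P = 0.0293). An adjusted P-value under 0.05 was reached in 1 of 20 alternatives in A + T vs. T and in 2 of 20 in A + T vs. S. Without animals 12 and 22 together, an alternative chosen after seeing the data, A + T vs. S was −0.957 (adjusted P = 0.0175), while A + T vs. T was −0.813 and not called (adjusted P = 0.0607). The part of the airway RNA in the level of Fstl3 in the library of animal 22 was not tested. Fstl3 is also on the study's list of changed heart genes, which the paper gives for tumour hosts against sham. The fit here showed no difference of Fstl3 in T vs. S, so the listing does not match that comparison. The place of Fstl3 among the members is not independent evidence.

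Fst encodes follistatin, which binds activins almost irreversibly. It was read from 10 to 38 counts a library, with means of 1.55 ± 0.634 CPM in S, 0.994 ± 0.407 in the libraries labelled T and 1.56 ± 0.687 in A + T (SD, n = 3 each). In A + T, animal 20 was at 2.35 CPM and the other two at 1.15 and 1.17 CPM. Log2 fold changes were −0.61 in T vs. S (95% interval −1.58 to 0.37), 0.64 in A + T vs. T (−0.34 to 1.62) and 0.03 in A + T vs. S (−0.89 to 0.95), with adjusted P-values of 0.3556, 0.4275 and 0.9708. The ratio of Fst to Inhba, an inhibitor set against its main ligand, was −1.15 ± 0.44 in S, −1.69 ± 0.37 in the libraries labelled T and −0.86 ± 1.03 in A + T on the log2 scale per length (SD, n = 3 each). With the annotated exon lengths the group means were 0.21 ± 0.48, −0.40 ± 0.43 and 0.52 ± 1.12, and 3 libraries turned from below to above 0, so that which gene of this pair is the more abundant depends on the lengths. P-values of the ratio on the deposited scale in the exact permutation test were 0.2 for T vs. S, 0.3 between A + T and T, and 0.8 between A + T and S.

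Beyond the members, 36 other genes of the pathway were tested out of 51 symbols listed. In T vs. S, 14 of the 36 passed (38.9%, background 21.2%), 4 higher and 10 lower. In A + T vs. T, 2 passed (5.56%, background 5.88%), both lower. In A + T vs. S, 6 passed (16.7%, background 8.31%), 1 higher and 5 lower. The median log2 fold change of the 36 was −0.21, −0.03 and −0.19 in these comparisons. The list was drawn up with earlier results of these libraries known, so its counts are descriptions. Without animals 12 and 22, Smurf2 was no longer called in T vs. S (log2 fold change −0.195, adjusted P = 0.102) and Furin was (0.327, adjusted P = 0.02196). Then Fstl1 (0.808, adjusted P = 0.03803), Igsf1 (1.21, adjusted P = 0.009958) and Smad3 (0.425, adjusted P = 0.04553) were called as well in A + T vs. T, all higher. Chrd (−0.775, adjusted P = 0.07583) and Ski (−0.378, adjusted P = 0.055) lost their calls in A + T vs. S, and the inhibitory Smad6 was called lower (−0.762, adjusted P = 0.008244). Every other call of a pathway gene in the 3 comparisons was kept without these libraries.

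**Figure D5:**
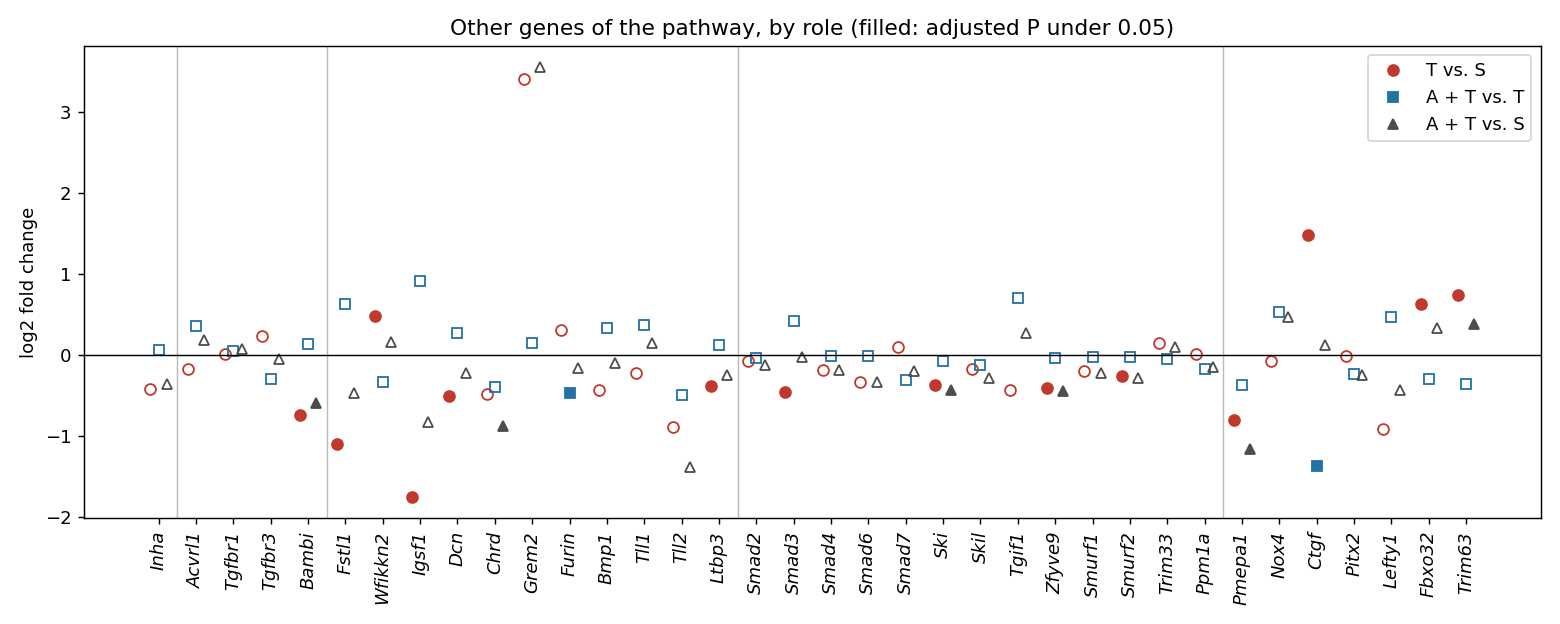
Log2 fold change (y axis) of the 36 other pathway genes (x axis) in the 3 comparisons; filled marks have an adjusted P-value under 0.05, and vertical lines part the roles (ligand subunits, receptors, extracellular inhibitors and processing enzymes, Smads and cofactors, target genes). Ctgf is filled above 0 in T vs. S and filled below 0 in A + T vs. T.

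Among known target genes, 4 of 7 passed in T vs. S, 3 higher and 1 lower, where 10.3% of all genes were higher and 11% lower. Ctgf, which encodes a matricellular growth factor, was at 163 ± 21.3 CPM in S, 456 ± 77.8 in the libraries labelled T and 178 ± 29.0 in A + T (SD, n = 3 each). It was 2.80-fold higher in T vs. S (log2 fold change 1.48, standard error 0.16, adjusted P = 0.0002429) and 2.57-fold lower in A + T vs. T (−1.36, standard error 0.16, adjusted P = 0.002691), with no overlap of groups in either. Both differences share the libraries labelled T.

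Pmepa1, a feedback inhibitor that TGF-β signalling induces, was the target gene that was lower. It was at 43.5 ± 1.78 CPM in S, 25.1 ± 2.63 in the libraries labelled T and 19.5 ± 3.61 in A + T (SD, n = 3 each). It was 1.74-fold lower in T vs. S (adjusted P = 0.002278) and 2.24-fold lower in A + T vs. S (adjusted P = 0.001914), and every A + T library lay below every library labelled T, with a log2 fold change of −0.36 (adjusted P = 0.1347). Trim63, which encodes the muscle ubiquitin ligase MuRF1, was at 193 ± 21.1, 322 ± 21.97 and 252 ± 18.1 CPM. Trim63 was 1.67-fold higher in T vs. S (adjusted P = 0.0009145) and 1.31-fold higher in A + T vs. S (adjusted P = 0.04136). Fbxo32, which encodes the muscle ubiquitin ligase atrogin-1, was at 250.4 ± 39.8, 386 ± 47.9 and 316 ± 41.2 CPM, and was 1.54-fold higher in T vs. S (adjusted P = 0.01058).

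Of the 11 extracellular inhibitors and processing enzymes, 1 was higher (9.09%, background 10.3%) and 4 were lower (36.4%, background 11%) in T vs. S. Wfikkn2, which encodes the myostatin and GDF11 binding protein GASP-1, was the one that was higher, at 14.5 ± 0.487 CPM in S, 20.3 ± 2.19 in the libraries labelled T and 16.2 ± 0.844 in A + T (SD, n = 3 each; 1.40-fold in T vs. S, adjusted P = 0.007217). Igsf1, which encodes a membrane glycoprotein reported as a modulator of activin signalling, was at 23.4 ± 4.79, 6.93 ± 0.459 and 13.2 ± 5.44 CPM, 3.35-fold lower in T vs. S (adjusted P = 0.002166). Fstl1, a follistatin-related protein made largely by stromal cells, was at 112 ± 2.87, 52.6 ± 4.09 and 81.3 ± 26.1 CPM, 2.13-fold lower in T vs. S (adjusted P = 0.00232). Dcn, also lower there, is at the same time one of the 5 fibroblast markers, whose summed level is given above, and the part of that cell type in these genes was not tested. Furin, the protease that cleaves ligand precursors, was at 124 ± 12.4, 154 ± 5.90 and 111 ± 12.03 CPM, and was 1.38-fold lower in A + T vs. T (adjusted P = 0.02755).

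Of the 4 other receptor genes, 1 passed in T vs. S (25%, background 21.2%). This was Bambi, a pseudoreceptor without a kinase that blocks type I receptors. It was at 23.6 ± 1.93 CPM in S, 14.1 ± 2.93 in the libraries labelled T and 15.6 ± 2.16 in A + T (SD, n = 3 each). It was 1.66-fold lower in T vs. S (adjusted P = 0.00742) and 1.51-fold lower in A + T vs. S (adjusted P = 0.0388). The type I receptor Tgfbr1, at 0.02 in T vs. S on the log2 scale (95% interval −0.19 to 0.23), was among the 3 that did not pass. Of the 13 Smads and cofactors, 4 were lower in T vs. S (30.8%, background 11%) and none was higher (background 10.3%). Zfyve9, which encodes the Smad anchor SARA, was at 37.6 ± 1.33, 28.4 ± 1.30 and 27.7 ± 1.43 CPM. Zfyve9 was 1.32-fold lower in T vs. S (adjusted P = 0.004792) and 1.36-fold lower in A + T vs. S (adjusted P = 0.009379), with both groups clear of S. The receptor-regulated Smad3 was 1.37-fold lower in T vs. S (adjusted P = 0.04018), while its partner Smad2 had a log2 fold change of −0.08 (95% interval −0.30 to 0.15). Inha, the inhibin α chain and the only 1 of 6 further ligand genes in the table, was at 5.78 ± 1.07, 4.32 ± 0.551 and 4.52 ± 0.248 CPM and was not called.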

How the data were processed

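Total RNA of 9 mouse hearts was sequenced as 75-base paired ends after selection of mRNA. The authors aligned the reads to mm10 with STAR, assigned uniquely mapped pairs to refGene genes with featureCounts in a strand-specific way, and deposited raw counts per gene. Versions are not given in the sources used here. They also deposited log2 values per library. For each gene these differ from log2 CPM (TMM, prior count 2) by a constant (median SD 1.66e-05), as values per kilobase do, and they were used for levels between genes.

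The counts were analysed in R 4.3.3 with edgeR 4.0.16: genes with CPM under 0.5 in more than 4 libraries were removed, as in the study's methods, libraries were scaled by TMM, and the 3 groups were fitted together with the quasi-likelihood test. P-values were adjusted by Benjamini-Hochberg over all 13364 genes, and an adjusted P-value under 0.05 was a call. The test was checked on simulated data. Alternatives used DESeq2 1.42.0, limma 3.58.1 (voom, and limma on the deposited log2 values), edgeR's likelihood ratio test, other scalings and filters, and each library left out. Positions are from GENCODE M21. Replicates were labelled by animal number, differed beyond sampling noise (chi-square per gene of at least 7.48) and were not paired. Levels are CPM on TMM-scaled library sizes. Floors of single counts cover counting error only. The intervals of the fold changes come from the quasi-likelihood fit and include the spread between animals.

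The members and lists were chosen with earlier results of these data known. The genes named were the 10 members, the 10 pathway genes with an adjusted P-value under 0.05 and the lowest P-values in any comparison, and the 3 genes most correlated with each called member. Dcn, Smad2, Smad3, Smad6, Smurf2, Ski, Chrd, Tgfbr1 and Inha were named after their values were seen. One listed pathway gene is not reported here and was left out of the list's counts, medians and ranking. The ratio of Mstn to Gdf11 was not computed because Gdf11 had 3 or fewer counts in some libraries.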

Additional observations from a re-analysis of the deposited data

How the results depend on the processing

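Of the members, Acvr1 in T vs. S kept its call in all 20 alternatives. Over the leave-one-out fits, T vs. S gave 1765 to 3786 genes called, 1 to 2 members and 10 to 16 pathway genes. A + T vs. T gave 130 to 1006, 0 to 1 and 1 to 6, and A + T vs. S gave 269 to 1086, 0 to 2 and 1 to 7. Log2 fold changes of Acvr1 in A + T vs. S ran from −0.513 to −0.435 in these fits. Scaling by library size only gave 1637, 438 and 555 genes called in these 3 comparisons, taken in that order, where the reported analysis gave 2837, 786 and 1110. It also gave 7 pathway genes in T vs. S and, in the second comparison, 1 where the reported analysis gave 2. In A + T vs. S it gave 1 pathway gene and 0 members, with a log2 fold change of −0.48 for Acvr1. In A + T vs. T, DESeq2 called 1198 genes and 5 pathway genes, the likelihood ratio test 1195 and 5, and a fit of only the groups compared 217 and 1. That last fit called 2 members in T vs. S. The study's thresholds gave 2, 1 and 3 members in the 3 comparisons, and 8 and 4 pathway genes in the first and the second. Without animals 12 and 22, chosen after seeing the data, 5 pathway genes were called in A + T vs. T, and 2 members and 5 pathway genes in A + T vs. S. The cause was not tested.

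Every change of direction concerned a value that was called in no such fit. In T vs. S, Inhba had a log2 fold change of 0.0256 with limma-voom, and Inhbb 0.111 without animals 12 and 22. Fstl3 had −0.0205 with upper-quartile scaling, −0.00955 with library size only, −0.00366 with at least 10 counts in every library, −0.00695 on the deposited log2 values and −0.144 without animals 12 and 22. In A + T vs. T, Acvr2a had 0.0329, 0.015 and 0.164 with upper-quartile scaling, library size only and without animals 12 and 22, and Mstn had 0.0312, 0.0105 and 0.12 there and 0.00231 with at least 10 counts. Fst in A + T vs. S had −0.00225 on the deposited log2 values. Leave-one-out ranges that crossed 0 were −0.591 to 0.423 for Mstn, −0.279 to 0.22 for Inhba, −0.403 to 0.108 for Inhbb and −0.158 to 0.113 for Fstl3 in T vs. S. In A + T vs. T they were −0.169 to 0.152 for Acvr2a, −0.0186 to 0.154 for Acvr1b, −0.168 to 0.158 for Mstn, −1.06 to 1.35 for Gdf11 and −0.384 to 0.0192 for Inhba, and in A + T vs. S −0.606 to 0.408 for Mstn and −0.395 to 0.366 for Fst. With at least 10 counts in every library Gdf11 had no value. No paired analysis was possible because the groups share no animal numbers. With 3 animals a group and 1 to 50 counts a library, the members Gdf11, Mstn, Fst, Inhba and Acvr2b were read too thinly for changes below about their intervals to be seen.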
